A study of Mus musculus with 5 samples.

Results

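The genes of glucose uptake and glycolysis were examined in an RNAseq comparison of macrophages sorted from mouse aortas. The set held 10 genes, chosen by symbol from a table of 55487 genes: *Slc2a1*, *Hk3*, *Gpi1*, *Aldoa*, *Tpi1*, *Gapdh*, *Pgk1*, *Pgam1*, *Eno1* and *Pkm*. The 2 control libraries were labelled *Zeb1* WT/*Apoe* KO and the 3 others *Zeb1* ∆M/*Apoe* KO, called WT and ∆M libraries from here on. *Apoe* was deleted in all mice. In the ∆M mice, Cre expressed from *Lyz2*, which is active in macrophages and neutrophils, removed floxed *Zeb1* in the myeloid lineage, and the WT mice carried floxed *Zeb1* without Cre. All mice were males, 18 weeks old at the end, fed chow (8 weeks) followed by Western diet (10 weeks). The labels give the sort as CD45+ F4/80+ cells, and the methods add CD11b+, a gate that T cells would not be expected to pass. The study's methods state that 3 mice were pooled per genotype and condition. The methods call all replicates of the study independent biological samples and do not say, for these libraries, which mice entered each pool, so the p-values measure the spread between the libraries.

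Glycolysis is the cytosolic pathway that splits glucose into pyruvate with a small net gain of ATP. Glucose enters through facilitative transporters, is phosphorylated by hexokinases, and passes through an upper part that consumes ATP and a lower part that yields ATP and NADH. Macrophages raise this pathway when they are activated by inflammatory stimuli, and the transcription factor HIF-1 drives many of its genes under low oxygen.

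Total counts lay between 20118545 and 50649912 per library. CPM are counts scaled to a common effective library size, the total after the filter times a TMM factor, which was 0.515 in ∆M replicate 1 and 1.03 to 1.42 in the others. A floor of 3 counts was 0.248 CPM in ∆M replicate 1 and 0.0597 to 0.109 CPM in the others. Intervals and floors of this kind cover counting error only, since PCR copies are not independent molecules. *Zeb1* had no count in either WT library and 22, 0 and 0 in the ∆M libraries, and so did not check the genotype labels. *Apoe* had 48 and 31 counts in the WT libraries and 86, 0 and 4 in the ∆M libraries. Of the 15 macrophage markers, 11 to 14 per library were above 3 counts, with a summed level of 40180 and 43840 CPM (per total counts) in the WT and 39700 to 48860 in the ∆M libraries. *Mertk* was at 0 in 4 of them, *Cd68*, *C1qa* and *Fcgr1* were at 0 in WT replicate 1, *Fcgr1* was at 0 in ∆M replicate 3, and *Itgam*, which encodes CD11b, was at 0 in ∆M replicate 1. The sum of ∆M replicate 1 rested on few markers, among them *C1qb*, *Tyrobp* and *Ctss* with 398502, 229712 and 228337 counts. There *Cd68*, *Cd14*, *Csf1r*, *C1qa* and *C1qc* had 10, 33, 25, 5 and 257 counts. *Lyz2* had 596080 and 777264 counts in the WT and 161607, 856923 and 869804 in the ∆M libraries, and *Ptprc*, which encodes CD45, had 13409 and 13949 against 475, 44796 and 29947. *Adgre1*, which encodes F4/80, had 9368 and 11689 counts in the WT libraries and 1068, 4404 and 38190 in the ∆M libraries.

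∆M replicate 1 stood apart. It had the most genes with at least 1 count, 20919 against 7395 to 10689 in the other 4 libraries, and the fewest genes with at least 100 counts, 870 against 1714 to 4421. Erythroid markers summed to 8029 CPM (per total counts) in it, with 3 of 5 above 3 counts and *Hbb-bt* and *Alas2* at 0. On the same scale they summed to 3.73 CPM in WT replicate 1 and to 0 in the other 3 libraries. The alpha-globin genes *Hba-a1* and *Hba-a2* had 60292 and 133027 counts in ∆M replicate 1 and 0 elsewhere. The 10 glycolysis genes together had 782 counts in this library, 0.00321% of its total. Their sums in the other libraries were 49998 and 195976 counts (0.248% and 0.567%) in WT replicates 1 and 2 and 184472 and 143087 counts (0.516% and 0.282%) in ∆M replicates 2 and 3. *Rpl19*, a ribosomal protein gene, had 39728 counts in ∆M replicate 1 against 9727 to 36868 in the others. A total of 777 genes reached 100 counts in each of the other 4 libraries. Of these, 478 (61.5%) were under 100 here, and these included 5 of 5 glycolysis genes (*Eno1*, *Gapdh*, *Aldoa*, *Pkm* and *Pgam1*). The same share for the other libraries was 3.86% to 21.9%. Fold changes are given with and without this library where it can be left out, and its part in them was tested no further. In sorted bulk samples, fewer cells of a type and less RNA per cell cannot be told apart.

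**Figure D1:**
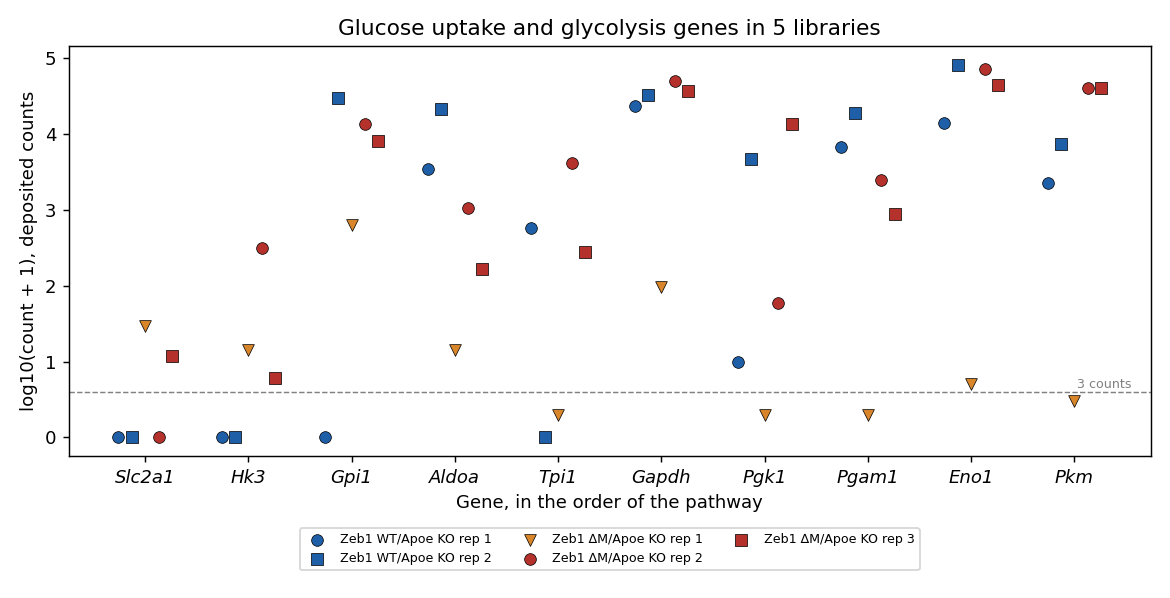
Counts of the 10 genes in the 5 libraries, as log10(count + 1), in the order of the pathway, with 1 symbol per library and a dashed line at the floor of 3 counts. *Gapdh* and *Eno1* had 13869 to 82184 counts in 4 libraries, while 96 and 4 were counted for *Zeb1* ∆M/*Apoe* KO replicate 1, and *Gpi1* ran from 0 to 29561 counts within 1 genotype.

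Across the pathway, no difference between the genotypes passed the test. The filter on low counts kept 9 of the 10 genes, and 0 of these had a Benjamini-Hochberg adjusted p under 0.05 in the quasi-likelihood test of edgeR, as did 0% of all 7905 genes tested. None of the 9 (0) had an unadjusted p under 0.05, against 86 of all genes tested (1.09%). DESeq2 with default options gave an adjusted p for 8 of the 10 and also called 0, against 12.1% of the 6519 genes with an adjusted p there. The median log2 fold change (∆M over WT) was −0.49 over the 9 genes, also with *Hk3* at its lower bound, and 0.78 over all genes tested. Without ∆M replicate 1 the medians were −0.19 over 8 genes and 0.14 over all 5050 genes then tested, and with limma-voom they were 1.39 and −0.30, so their order turned with the tool. The gene estimates were 4 higher and 5 lower in the ∆M libraries, against 4811 and 3094 over all genes tested. These counts describe the filtered genes and include estimates whose direction changed with 1 library or with another scaling. CPM values did not overlap between the genotypes for *Aldoa* and *Pgam1*, lower in every ∆M library (2 of 9, against 4.54% of all genes tested). Of all genes tested, 6.68% were higher in the ∆M libraries without overlap. By CPM this was 1 of the 9 genes, *Hk3*, which had no WT count and passed the filter through its ∆M libraries alone, so that nothing is read from that count. Only 3 of the 10 genes, *Gapdh*, *Aldoa* and *Eno1*, exceeded 3 counts in all 5 libraries.

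*Slc2a1* encodes GLUT1, the transporter for basal glucose uptake (ENSMUSG00000028645.11, chromosome 4, 119108711 to 119137983, plus strand, GRCm38). It had 0 and 0 counts in the WT libraries and 28, 0 and 11 in ∆M replicates 1, 2 and 3. It did not pass the filter, and both WT libraries shared their 0 with ∆M replicate 2. The difference in mean log2 CPM was 2.51, with p = 0.4 (two-sided exact permutation test, whose smallest possible p for 2 against 3 libraries is 0.1). Without ∆M replicate 1, only the 11 counts of ∆M replicate 3 remained. With 28 counts or fewer in every library, no difference was detectable at this depth.

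Other glucose transporters were checked beside it. *Slc2a3*, which encodes the high-affinity transporter GLUT3, had 7 and 2 counts in the WT libraries and 8, 2171 and 1 in the ∆M libraries. *Slc2a6*, a transporter of the lysosomal membrane that is raised in inflammatory macrophages, had 0 and 516 counts against 29, 14 and 136. In each case 1 library held most of the counts.

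*Hk3* encodes a hexokinase found mainly in myeloid cells (ENSMUSG00000025877.14, chromosome 13, 55005985 to 55021385, minus strand). It had 0 and 0 counts in the WT libraries and 13, 314 and 5 in ∆M replicates 1, 2 and 3. Only ∆M replicate 2 was far above the floor, and the 5 counts of ∆M replicate 3, 0.0995 CPM, lay under the floor of WT replicate 1, 0.109 CPM, so that its order against that library is not set at this depth. The ∆M libraries had 2.84 ± 3.93 CPM (SD, n = 3). For counting error alone, this mean was at least 29.0-fold that of 3 counts per WT library, and at least 5.99-fold without ∆M replicate 2. Nothing is read from these folds, since the gene passed the filter through its ∆M libraries alone. The fitted log2 fold change was 9.57 with a standard error of 5.67 (edgeR adjusted p = 1), a value that depends on the prior count and is no bound, and that of DESeq2 had an adjusted p of 0.11. Without ∆M replicate 1 the gene did not pass the filter. Its 250 bases before the RefSeq start (GRCm38.p6, chr13:55021386-55021635, minus strand) are shown with the HIF core motif ACGTG or GCGTG, read on either strand, in capitals. The window was picked for the counts above, from which nothing is read, and the match describes letters only.
*Hk3*: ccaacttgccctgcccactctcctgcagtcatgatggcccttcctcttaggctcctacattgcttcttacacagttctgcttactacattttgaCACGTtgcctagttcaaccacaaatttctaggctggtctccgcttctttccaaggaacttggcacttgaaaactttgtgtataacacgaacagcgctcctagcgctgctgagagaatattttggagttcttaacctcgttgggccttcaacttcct

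The other hexokinases were scattered. *Hk1*, the housekeeping hexokinase, had 2 and 5 counts in the WT libraries and 22, 1493 and 0 in the ∆M libraries. *Hk2*, the hexokinase that inflammatory signals induce in macrophages, had 836 and 23 counts against 12, 2173 and 1883, with a log2 fold change of 0.94 (standard error 4.91, edgeR adjusted p = 1), or 1.16 without ∆M replicate 1. Each library held at least 1 hexokinase above 3 counts.

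*Gpi1* encodes phosphoglucose isomerase, which turns glucose 6-phosphate into fructose 6-phosphate (ENSMUSG00000036427.5, chromosome 7, 34201330 to 34230336, minus strand). It had 0 and 29561 counts in WT replicates 1 and 2 and 623, 13421 and 7982 in the ∆M libraries. The ∆M libraries lay between the WT libraries. In ∆M replicate 1, *Gpi1* held 623 of the 782 counts of the set and was the only gene of the set above 100 counts. Its log2 fold change was −1.30 (standard error 3.69, edgeR adjusted p = 1), −0.90 without ∆M replicate 1, 1.05 with upper-quartile normalization and 15.5 without WT replicate 2, where the remaining WT library had no count.

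Phosphofructokinase, the main control point of the pathway, had no gene in the set. Its genes were checked beside it and varied between libraries. *Pfkl*, the liver-type subunit, had 3 and 0 counts in the WT libraries and 38, 83 and 10891 in the ∆M libraries. The ∆M libraries did not overlap the WT libraries. Their mean was 756-fold the WT floor, or 25.9-fold without ∆M replicate 3. With 3 counts seen in WT replicate 1 these folds are no bounds, and the gene passed the filter through the ∆M libraries alone. *Pfkl* had an adjusted p of 1 from edgeR and 0.0488 from DESeq2. *Pfkm*, the muscle-type subunit, had 266 counts in ∆M replicate 3 and 0 in the other 4 libraries. *Pfkp*, the platelet-type subunit, had 482 and 22 counts against 4, 0 and 294. The step had at least 100 counts in WT replicate 1 and ∆M replicate 3 only.

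*Aldoa* encodes aldolase A, which splits fructose 1,6-bisphosphate (ENSMUSG00000030695.16, chromosome 7, 126795234 to 126800751, minus strand). A second row of the same symbol, ENSMUSG00000114515.2, had 0 counts in all 5 libraries and was left aside. *Aldoa* had 3419 and 21023 counts in the WT libraries and 13, 1062 and 164 in ∆M replicates 1, 2 and 3. Both WT libraries were above all ∆M libraries, also with CPM by total counts. The level was 367 ± 344 CPM (SD, n = 2) against 9.72 ± 13.1 CPM (SD, n = 3). edgeR fitted a log2 fold change of −5.24 (standard error 4.69, edgeR adjusted p = 1) and −4.80 (standard error 4.12, edgeR adjusted p = 0.9999) without ∆M replicate 1. DESeq2 gave an adjusted p of 0.195. *Aldoc*, the brain-type aldolase, had 0 counts in all 5 libraries. The 250 bases before one of 3 RefSeq starts of *Aldoa* (GRCm38.p6, chr7:126799255-126799504, minus strand) are shown as the promoter of a gene lower in all ∆M libraries, with the HIF core in capitals. Of the 250 bases before the other starts, those at chr7:126799179-126799428 overlap these and hold the same match, and those at chr7:126800448-126800697 hold none (0).
*Aldoa*: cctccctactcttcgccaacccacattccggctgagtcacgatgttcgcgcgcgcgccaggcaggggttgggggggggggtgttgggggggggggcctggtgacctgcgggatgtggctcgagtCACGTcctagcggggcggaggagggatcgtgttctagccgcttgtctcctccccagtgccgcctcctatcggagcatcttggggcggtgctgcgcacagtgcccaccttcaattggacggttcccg

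*Tpi1* encodes triosephosphate isomerase, which interconverts the products of aldolase (ENSMUSG00000023456.16, chromosome 6, 124810586 to 124814296, minus strand). It had 579 and 0 counts in the WT libraries and 1, 4124 and 278 in the ∆M libraries. The genotypes overlapped, with 1 library of each at or near 0. The log2 fold change was 1.70 (standard error 5.08, edgeR adjusted p = 1), and it was 1.94 without ∆M replicate 1, −1.85 without ∆M replicate 2 and −3.64 with upper-quartile normalization. No other gene of these lists encodes this enzyme, so WT replicate 2 and ∆M replicate 1 had 0 and 1 counts for the step.

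*Gapdh* encodes the dehydrogenase that forms NADH in the pathway and is widely used as a reference gene (ENSMUSG00000057666.18, chromosome 6, 125161715 to 125166467, minus strand). It had 23196 and 32294 counts in the WT libraries and 96, 50169 and 36322 in ∆M replicates 1, 2 and 3. ∆M replicate 1 was far below the other 4 libraries, which lay within 723 to 1173 CPM. The level was 888 ± 68.8 CPM (SD, n = 2) against 635 ± 588 CPM (SD, n = 3), or 948 ± 318 CPM (SD, n = 2) without ∆M replicate 1. On the log2 scale the fold change was −0.49 (standard error 2.98, edgeR adjusted p = 1) and −0.11 (standard error 1.52, edgeR adjusted p = 0.9999) without that library. Relative to *Rpl19*, a reference gene for mouse qRT-PCR in the methods, the *Gapdh* counts were 62.9% and 212% in the WT libraries and 0.242%, 257% and 373% in the ∆M libraries, so that these reference genes did not keep a fixed ratio.

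*Pgk1* encodes phosphoglycerate kinase, the first ATP-forming enzyme of the pathway (ENSMUSG00000062070.12, chromosome X, 106187100 to 106203699, plus strand). It had 9 and 4749 counts in the WT libraries and 1, 58 and 13547 in the ∆M libraries. Each genotype held 1 library above 1000 counts and at least 1 below 10. The log2 fold change was 0.39 (standard error 4.80, edgeR adjusted p = 1), and it was 0.90 without ∆M replicate 1, −6.56 without ∆M replicate 3 and −0.48 without WT replicate 1.

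*Pgam1* encodes phosphoglycerate mutase, which moves the phosphate ahead of enolase (ENSMUSG00000011752.7, chromosome 19, 41911923 to 41918660, plus strand). It had 6678 and 18721 counts in the WT libraries and 1, 2436 and 876 in ∆M replicates 1, 2 and 3. As with *Aldoa*, both WT libraries were above all ∆M libraries, also with CPM by total counts. The level was 393 ± 213 CPM (SD, n = 2) against 24.8 ± 29.2 CPM (SD, n = 3), and 37.2 ± 27.9 CPM (SD, n = 2) without ∆M replicate 1. edgeR fitted a log2 fold change of −3.98 (standard error 4.35, edgeR adjusted p = 1) and −3.54 (standard error 3.59, edgeR adjusted p = 0.9999) without that library, and DESeq2 gave an adjusted p of 0.357. *Pgam2*, the muscle-type mutase, had 0 counts in all 5 libraries. The 250 bases before the RefSeq start of *Pgam1* (GRCm38.p6, chr19:41911621-41911870, plus strand) are shown for the same reason as those of *Aldoa*, with HIF core motifs in capitals.
*Pgam1*: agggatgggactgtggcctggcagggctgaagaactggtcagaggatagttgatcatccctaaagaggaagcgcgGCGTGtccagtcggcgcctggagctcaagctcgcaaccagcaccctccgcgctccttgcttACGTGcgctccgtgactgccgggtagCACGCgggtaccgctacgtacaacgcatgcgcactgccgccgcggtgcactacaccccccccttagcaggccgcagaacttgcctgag

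*Eno1* encodes enolase 1, which forms phosphoenolpyruvate (ENSMUSG00000063524.13, chromosome 4, 150236721 to 150248879, plus strand). It had 13869 and 82184 counts in the WT libraries and 4, 72639 and 44116 in the ∆M libraries. ∆M replicates 2 and 3 lay between the WT libraries. The log2 fold change was −0.75 (standard error 2.72, edgeR adjusted p = 1), −0.27 (standard error 1.27, edgeR adjusted p = 0.9999) without ∆M replicate 1 and 0.79 without WT replicate 2. *Eno3*, the muscle-type enolase, had 9504 and 0 counts in the WT libraries and 0, 257 and 14686 in the ∆M libraries, and added to the step in WT replicate 1 and ∆M replicate 3.

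*Pkm* encodes pyruvate kinase M, which closes the pathway with a second ATP-forming reaction and is the form that macrophages use (ENSMUSG00000032294.17, chromosome 9, 59656368 to 59679375, plus strand). It had 2248 and 7444 counts in the WT libraries and 2, 40249 and 39786 in ∆M replicates 1, 2 and 3. ∆M replicates 2 and 3 were close to each other and above both WT libraries, and ∆M replicate 1 was below all. The level was 149 ± 95.2 CPM (SD, n = 2) against 578 ± 506 CPM (SD, n = 3), or 867 ± 105 CPM (SD, n = 2) without ∆M replicate 1. edgeR's log2 fold change was 1.96 (standard error 3.69, edgeR adjusted p = 1), 2.40 (standard error 2.28, edgeR adjusted p = 0.9999) without that library and −1.88 with upper-quartile normalization. The genotypes therefore did not overlap for *Pkm* only when ∆M replicate 1 was left out, where 13.1% of all genes were higher in the ∆M libraries without overlap. The gene counts do not separate the PKM1 and PKM2 splice forms.

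**Figure D2:**
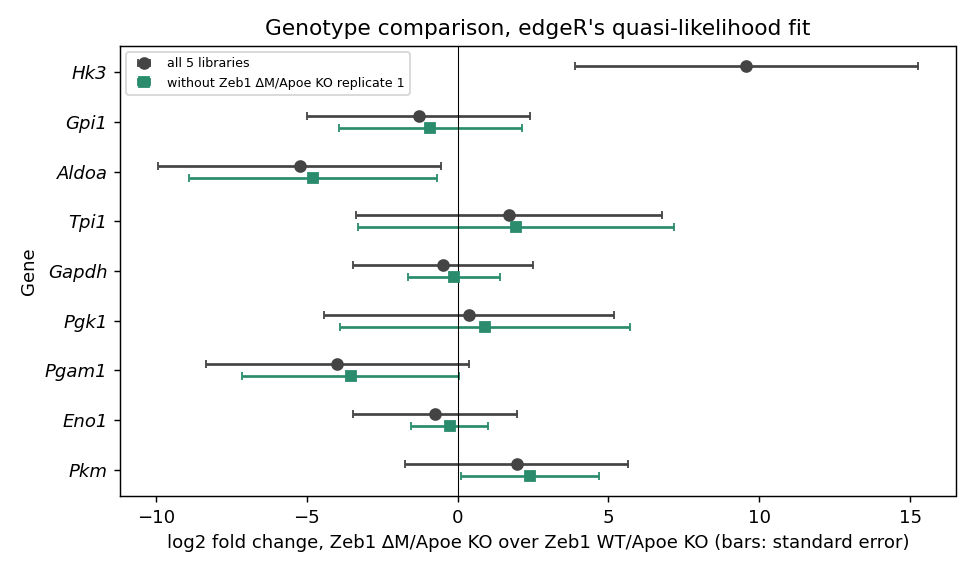
Log2 fold changes of the 9 tested genes, ∆M over WT, from edgeR's quasi-likelihood fit, with bars of 1 standard error, for all 5 libraries (grey circles) and without *Zeb1* ∆M/*Apoe* KO replicate 1 (green squares; *Hk3* did not pass the filter there). The estimates ran from −5.24 for *Aldoa* to 9.57 for *Hk3*, and the standard errors from 2.72 to 5.67 with all libraries.

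Levels of different genes were compared as TPM, that is, counts per kilobase of the joined annotated exons of a gene, scaled to the same sum in each library. *Gapdh* was the highest of the 10 in WT replicate 1 (542 TPM) and in ∆M replicate 3 (383 TPM), and *Eno1* in WT replicate 2 (1078 TPM) and ∆M replicate 2 (800 TPM). On this scale *Pgam1* came second in both WT libraries, at 325 and 667 TPM. In ∆M replicates 2 and 3 it was at 72.8 and 19.3 TPM. *Pkm*, at 43.4 and 105 TPM in the WT libraries, was at 477 and 347 TPM there, next after *Gapdh* and *Eno1*. These values are levels and carry no test, and their order depends on the length used. The joined exons of *Gapdh*, *Eno1* and *Pgam1* hold 4133, 5379 and 1982 bases. Their longest coding transcripts hold 1420, 2027 and 1775 bases, so the rank of *Pgam1* holds for joined exons only. The set was led by lower-pathway enzymes in those 4 libraries, and in ∆M replicate 1 the highest was *Gpi1* at 6.88 TPM.

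Ratios within a library leave out its depth and scaling. The *Pkm* counts were 9.69% and 23.1% of the *Gapdh* counts in the WT libraries and 2.08%, 80.2% and 109% in ∆M replicates 1, 2 and 3. The *Pgam1* counts were 28.8% and 58.0% of those of *Gapdh* in the WT libraries and 1.04%, 4.86% and 2.41% in the ∆M libraries, without overlap. *Aldoa* was at 14.7% and 65.1% against 13.5%, 2.12% and 0.452%, where the lowest WT library and ∆M replicate 1 were close. The *Eno1* ratios were 59.8% and 254% against 4.17%, 145% and 121%. The percentages of ∆M replicate 1 stand on 96 *Gapdh* counts. A ratio that differs between libraries does not show which of its 2 genes differed, and no ratio was tested.

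**Figure D3:**
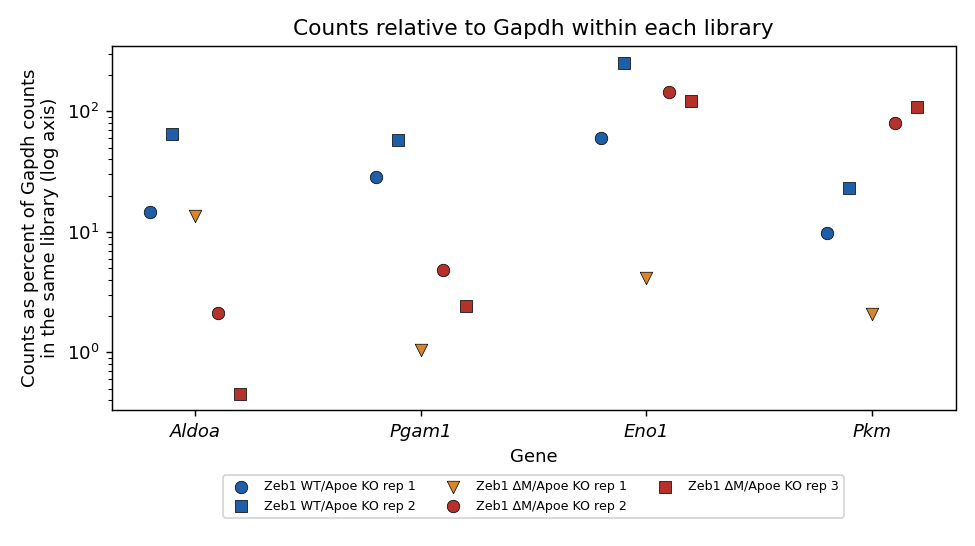
Counts of *Aldoa*, *Pgam1*, *Eno1* and *Pkm* as percent of the *Gapdh* counts of the same library, on a log axis, with 1 symbol per library. For *Pgam1* both *Zeb1* WT/*Apoe* KO libraries, at 28.8% and 58.0%, lay above the 3 *Zeb1* ∆M/*Apoe* KO libraries, and for *Pkm* replicates 2 and 3 of the latter, at 80.2% and 109%, lay above the others.

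Each of the 11 steps from uptake to pyruvate kinase was called detected in a library when at least 1 of its genes, paralogs of the set included, exceeded 3 counts. WT replicates 1 and 2 each had 10 of 11 steps, ∆M replicate 1 had 9, and ∆M replicates 2 and 3 had all 11. In ∆M replicate 1 the phosphoglycerate kinase step rested on *Pgk2*, with 16 counts, and the pyruvate kinase step on *Pklr*, with 9, since *Pgk1* and *Pkm* had 1 and 2. The missing steps were phosphoglucose isomerase in WT replicate 1, triosephosphate isomerase in WT replicate 2, and triosephosphate isomerase and phosphoglycerate mutase in ∆M replicate 1. With at least 100 counts, the numbers were 8 and 8 in the WT libraries and 1, 9 and 11 in ∆M replicates 1, 2 and 3. In WT replicate 1, *Gpi1* at 0 stood beside *Gapdh* at 23196 counts, and in WT replicate 2, *Tpi1* at 0 stood beside *Aldoa* at 21023. Over all genes, 11284 of the 21705 genes above 3 counts in any library exceeded 3 counts in 1 library alone, and 1085 did so in all 5. None of the 10 glycolysis genes (0) was above 3 counts in 1 library alone.

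**Figure D4:**
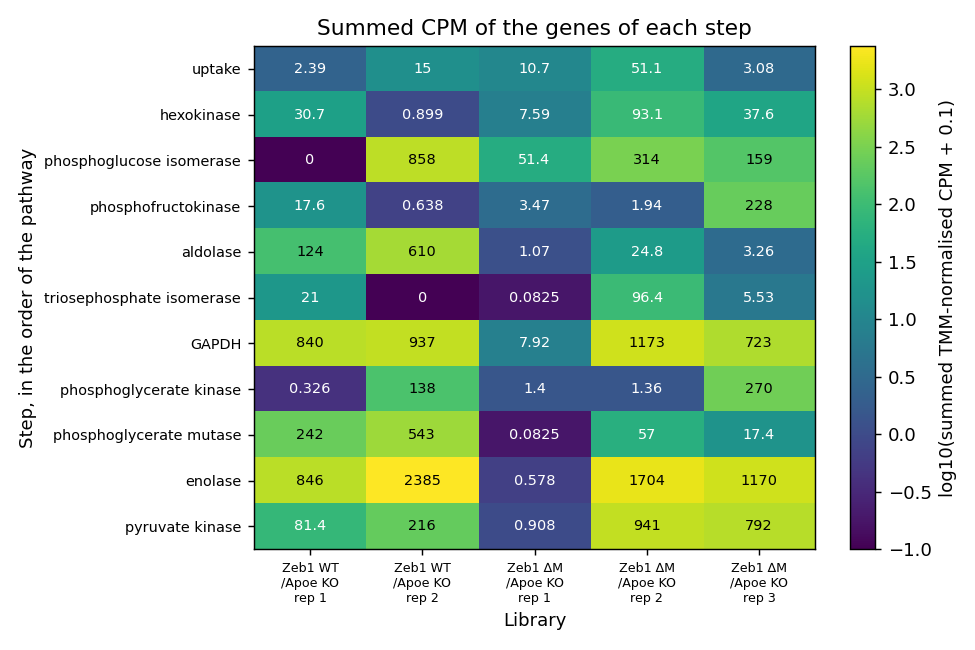
Summed TMM-normalised CPM of the genes of each step (rows, in the order of the pathway) in each library (columns), coloured by log10(CPM + 0.1) with the CPM written in each cell. GAPDH lay at 723 to 1173 CPM and enolase at 846 to 2385 CPM in 4 libraries, the phosphofructokinase step reached 228 CPM in *Zeb1* ∆M/*Apoe* KO replicate 3, and replicate 1 of that genotype was at 51.4 CPM or below in all steps.

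Several of these genes have processed pseudogenes that are nearly identical to them, to which the authors' counting could have assigned reads. Copies were defined as genes with a transcript at least 90% identical over at least 200 bases, and the share of a transcript's 75-base words (the read length) that another gene also holds was 80.3% for *Gapdh*, 67.5% for *Pgk1*, 65.4% for *Eno1* and 40.6% for *Pgam1*. It was 19.6% for *Pkm*, 14.8% for *Gpi1* and under 3% for the other 4. *Hk3* and *Slc2a1* had no copy. In the 4 libraries other than ∆M replicate 1, the copies held 2.46% to 3.56% of the counts of *Gapdh* and its copies, 2.62% to 3.34% for *Eno1* and 0.639% to 1.49% for *Pkm*. For *Pgk1* they held 18.2% and 2.02% in the WT libraries and 23.7% and 2.41% in ∆M replicates 2 and 3, where the libraries with the higher shares had 9 and 58 counts on the gene. In ∆M replicate 1 the copies held 83.2%, 91.7% and 93.9%. There, 477 counts lay on copies of *Gapdh* against 96 on the gene, 44 on copies of *Eno1* against 4, 31 on copies of *Pkm* against 2, and 13 on copies of *Pgam1* against 1. The copies with the most counts were *Gm7336* for *Gapdh*, *Gm4735* for *Eno1*, *Gm5537* for *Pgk1* and *Pgam1-ps2* for *Pgam1*. Gene values of this set are uncertain by the size of these shares. Summing each gene with its copies left 0 genes called.

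**Figure D5:**
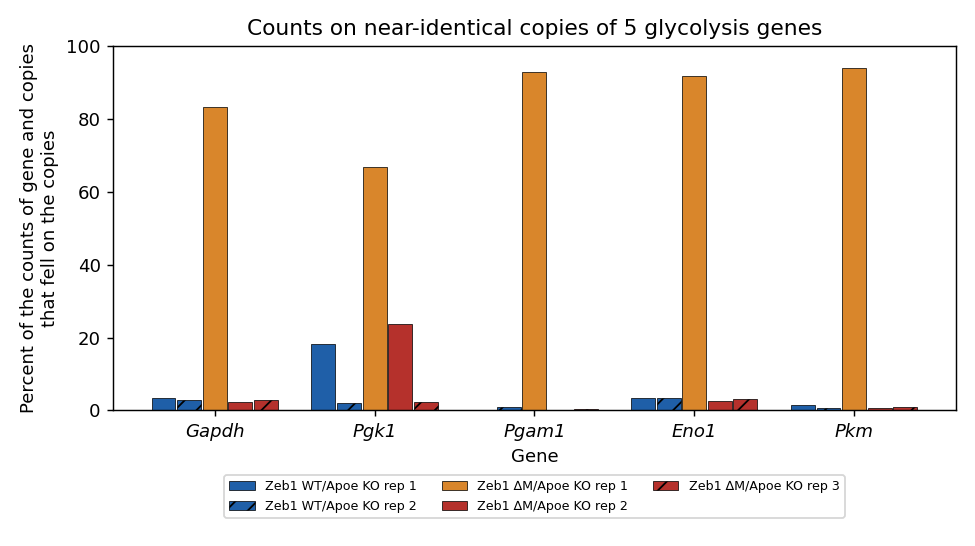
Percent of the counts of a gene and its near-identical copies that fell on the copies, for 5 genes, as bars from 0, with 1 bar per library. In *Zeb1* ∆M/*Apoe* KO replicate 1 the copies held 66.7% to 93.9% of the counts, and for *Gapdh*, *Eno1* and *Pkm* under 4% in the other 4 libraries.

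Genes that overlap members of the set were also looked up. The kit does not keep strand, so that reads from genes on opposite strands cannot be told apart. *Pkm* shares 15.3% of its exon bases with *Gm49759* on the same strand, which had 22 and 0 counts in the WT libraries and 27, 1 and 1 in the ∆M libraries. *Gpi1* shares 11.5% with *Gm26762* on the opposite strand, a gene with no value used here. *Gapdh* shares 1.65% with *Iffo1* on the opposite strand, which had 821 counts in WT replicate 1 and 20 or fewer elsewhere.

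Beyond the set, 72 genes of connected pathways were looked up, and 35 of them passed the filter. None of the 35 (0) had an adjusted p under 0.05 in edgeR's quasi-likelihood test, and 0 had an unadjusted p under 0.05. The estimates were 15 higher and 20 lower in the ∆M libraries, with a median log2 fold change of −0.79 (the same with genes at their bounds) against 0.78 over all genes tested. Without ∆M replicate 1 these were −0.91 over 24 genes and 0.14, and with limma-voom −0.24 and −0.30. CPM values did not overlap for 4 genes higher (*Pfkl*, *Arnt*, *Slc16a3* and *Tkt*, against 6.68% of all genes tested) and 2 lower (*Pdhb* and *Pgls*, against 4.54%). *Pfkl* and *Slc16a3* had 3 counts or fewer in both WT libraries and, like *Hk3*, passed the filter through the ∆M libraries alone. The order is not set at this depth for *Slc16a3*, whose 3 counts in ∆M replicate 3 are at the floor, nor for *Pgls*, whose 0.217 CPM in WT replicate 1 is under the floor of ∆M replicate 1, 0.248 CPM. *Arnt* had 0 and 6 counts in the WT libraries and 6, 29 and 157 in the ∆M libraries. Its order is not set either, since its 0.174 CPM in WT replicate 2 is under the same floor. DESeq2 gave an adjusted p for 24 of these genes and called 4 (*Pfkl*, *Slc16a3*, *Pgls* and *G6pdx*), beside the 12.1% it called over all genes. The adjusted p of *G6pdx*, 2.19e-08, came from 5299 counts in WT replicate 2 with 0 in the other 4 libraries. Of the 72 genes, 21 were above 3 counts in 1 library alone and 2 in all 5.

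Lactate dehydrogenase turns pyruvate into lactate and restores NAD+. *Ldha*, its A subunit, had 0 and 9725 counts in the WT libraries and 11, 4787 and 58845 in the ∆M libraries, with a log2 fold change of 1.60 (standard error 3.85, edgeR adjusted p = 1), or 2.12 without ∆M replicate 1. *Ldhb*, the B subunit, had 0 and 42312 counts against 0, 6 and 30419. Both subunits were at 0 in WT replicate 1, and the genotypes overlapped for both. *Slc16a3*, which encodes the lactate exporter MCT4, had 0 and 0 counts in the WT libraries and 18, 1361 and 3 in the ∆M libraries. Its counts rested on ∆M replicate 2 and its value in replicate 3 was at the floor, with an adjusted p of 1 from edgeR and 0.0477 from DESeq2. *Slc16a1*, which encodes MCT1, had 0 counts in all 5 libraries.

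Regulators of the pathway varied between libraries. *Hif1a*, a HIF-1 subunit, had 0 and 658 counts in the WT libraries and 10, 6 and 0 in the ∆M libraries. *Pfkfb3*, which makes the allosteric activator of phosphofructokinase, had 31 and 632 counts against 2, 68 and 2, with a log2 fold change of −4.01 (standard error 4.13, edgeR adjusted p = 1), or −3.62 without ∆M replicate 1. *Pdk1*, a kinase that limits the entry of pyruvate into mitochondria, had 0 and 1 counts against 27, 0 and 6. Others had their counts in 1 or 2 libraries. *Pfkfb2* had 7984 counts in ∆M replicate 2 and 8 or fewer elsewhere, *Myc* had 856 there and 0 elsewhere, and *Pfkfb4* had 1640 in WT replicate 2 and 16 or fewer elsewhere. *Pdk3* had 12 and 6486 counts in the WT libraries and 0, 539 and 0 in the ∆M libraries.

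The pentose phosphate pathway branches from glucose 6-phosphate and yields NADPH. *Taldo1*, which encodes transaldolase, had 66834 and 25618 counts in the WT libraries and 108, 57951 and 26249 in the ∆M libraries, and had like *Gapdh* and *Eno1* a low value in ∆M replicate 1. Its log2 fold change was −1.33 (standard error 2.76, edgeR adjusted p = 1) and −1.04 (standard error 1.29, edgeR adjusted p = 0.9999) without that library. *Tkt*, which encodes transketolase, had 14 and 0 counts in the WT libraries and 61, 2566 and 9307 in the ∆M libraries, without overlap, and a log2 fold change of 8.34 (standard error 7.32, edgeR adjusted p = 1), or 8.54 without ∆M replicate 1. *Pgd*, which encodes the second NADPH-forming dehydrogenase, had 2756 and 7374 counts against 35, 0 and 10384. *Pgls*, which encodes the lactonase between the dehydrogenases, had 6 and 3188 counts against 0, 3 and 4, with an adjusted p of 1 from edgeR and 0.0414 from DESeq2. The lower level of *Pgls* rested on WT replicate 2.

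Markers of other cells differed between libraries in which glycolysis genes also differed. Their sums are given here as CPM per total counts. T cell markers summed to 10.7 and 5481 CPM in the WT and 0.821, 593 and 1223 CPM in the ∆M libraries, with 7 of 7 above 3 counts in WT replicate 2, where *Gpi1*, *Aldoa*, *Pgam1* and *Eno1* were highest. Neutrophil markers summed to 3592 and 880 CPM in the WT and 1360, 1502 and 138 CPM in the ∆M libraries, with 2 to 4 of 7 above 3 counts and *Camp* at 0 in all libraries. B cell markers summed to 224 and 563 CPM in the WT and 2.99, 637 and 1442 CPM in the ∆M libraries, with 1 to 3 of 5 above 3 counts. Fibroblast markers reached 531 CPM in ∆M replicate 2 (2 of 6 above 3 counts) and 2.23 CPM or less elsewhere, and dendritic cell markers 430 CPM in ∆M replicate 3 (1 of 5) and 3.53 CPM or less elsewhere. Striated muscle markers reached 56.5 CPM in WT replicate 1 (2 of 5 above 3 counts) and 1.19 CPM or less elsewhere. Endothelial markers summed to 73.0 and 72.1 CPM in the WT and 2.95, 0.168 and 51.9 CPM in the ∆M libraries. *Pkm* was high in ∆M replicates 2 and 3 and *Pfkl* in ∆M replicate 3. The part of these cells in the results was not tested.

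The promoter windows of the set (250 bases before and 50 after each RefSeq start) were searched for the HIF core, spelled ACGTG or GCGTG on either strand. A window with it was found for 8 of the 10 genes, all but *Gpi1* and *Tpi1*, and for 46.7% of 26994 gene symbols. Per window it was 11 of 15 in the set against 43.8% of 32817. *Pgam1* held 3 matches in the bases shown, and *Aldoa* and *Hk3* 1 each. CACCTG, an E-box that ZEB proteins bind, was in no window of the set (0 of 10 genes), against 22.6% of gene symbols, and this motif was added after the data had been seen. A match describes these letters only and is not a binding site.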

How the data were processed

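RNAseq of 5 libraries was used (2 of *Zeb1* WT/*Apoe* KO and, called ∆M here, 3 of *Zeb1* ∆M/*Apoe* KO), prepared with an ultra-low-input kit that amplifies cDNA and sequenced in paired-end mode. The authors mapped reads to GRCm38 with STAR (2.5.3a in the submitters' processing notes), quantified genes with RSEM (1.3.0) and a GENCODE mouse annotation, and deposited expected counts rounded to whole numbers, with neither normalization nor filter. The methods speak of triplicates, and 2 *Zeb1* WT/*Apoe* KO libraries were analysed here.

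edgeR 4.0.16 in R 4.3.3 was run on all genes (filterByExpr with minimum count 10, TMM, quasi-likelihood test, Benjamini-Hochberg adjustment over the 7905 genes tested, called under 0.05). Log2 CPM used a prior count of 2. Standard errors are the log2 fold change divided by the square root of F. Where no library of a genotype exceeded 3 counts, folds against it are over the mean floor of that genotype. They are bounds, for counting error alone, only where all its counts were 0. The tests were checked on simulated counts, which were not used to judge their power in these data. The alternatives were DESeq2 1.42.0, limma-voom (limma 3.58.1) with sample quality weights, 3 other scalings, 2 other filters, the replicate block, each library left out, members summed with their copies, and a threshold of 0.1. DESeq2 without ∆M replicate 1, the counts of non-overlapping genes under other settings and the E-box were added after seeing the data.

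The 10 genes, the lists of connected genes, the markers and the rule for named genes (all 10 genes, a fixed selection of the lists, any list gene past the threshold, label checks and the copy with most counts) were chosen with earlier results of these data known. *Arnt*, *Pdhb*, *Mpc1*, *Mpc2*, *Bsg*, *Pgls*, *Pfkfb2*, *Pfkfb4*, *Myc*, *Pdk3*, *Pgk2*, *Pklr*, the single markers and the overlapping genes were named after their values were seen. Of the 55487 identifiers, 54349 matched GENCODE M21 with their version and 346 did not match. Promoters are from RefSeq (GRCm38.p6). Tables and figures were made in Python 3.11.15 with scipy 1.17.1 and matplotlib 3.10.9.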

Additional observations from a re-analysis of the deposited data

How the results depend on the processing

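No glycolysis gene was called under any alternative run, and of 126 gene values under alternatives 114 kept their direction and their side of the threshold and 12 reversed. The number of genes called over the whole table rose from 0 (86 at an unadjusted p under 0.05, edgeR) to 790 with DESeq2, 234 with limma-voom and 2328 with DESeq2 without ∆M replicate 1, and the cause was not tested. Scaling moved the median log2 fold change of all genes from 0.782 to 1.24 (RLE), 0.289 (upper quartile) and 0.129 (total counts). The median over the set moved from −0.485 to −0.77, −3.64 and −0.567 in the same order, and to −3.27 with the replicate block. *Gpi1* reversed to 5.55 with limma-voom, 1.05 with upper-quartile scaling and 15.5 without WT replicate 2. *Tpi1* reversed to −3.64 and *Pkm* to −1.88 with upper-quartile scaling, under which *Gapdh* was −4.92, *Eno1* −3.87 and *Pgam1* −7.78. Left-out libraries reversed *Tpi1* to −1.85 (without ∆M replicate 2), *Pgk1* to −0.479 (without WT replicate 1) and −6.56 (without ∆M replicate 3), and *Eno1* to 0.792 (without WT replicate 2). Leaving out a library gave 9.56 to 9.95 for *Hk3* without either WT library or ∆M replicate 3, and no value without ∆M replicate 1 or 2, where it did not pass the filter. ∆M replicate 2 holds 314 of its counts. Each library left out in turn gave ranges of −2.22 to 15.5 for *Gpi1*, −7.37 to −3.68 for *Aldoa*, −1.85 to 13.3 for *Tpi1*, −1.21 to −0.106 for *Gapdh*, −6.56 to 8.13 for *Pgk1*, −5.41 to −3.27 for *Pgam1*, −1.63 to 0.792 for *Eno1* and 1.49 to 2.85 for *Pkm*. A WT library left out leaves 1, which is assumed to vary like the ∆M libraries. Genes of the set without overlap then numbered 1 to 2 higher and 2 to 4 lower, to which leaving out a library can only add. Over all genes the shares rose to between 11.5% and 17.4% higher and between 7.46% and 26.2% lower. With at least 100 counts, ∆M replicate 1 held 1 step of 11. The depth behind a count of 0 allows up to 3 counts.

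Both genotypes have a replicate 1 and a replicate 2, whose differences correlated at 0.18 across genes, and 2 pairs are too few to tell whether the numbers pair the libraries. With the replicate block, 0 genes were called in the table and 0 in the set, and *Gpi1* was 5.13, *Pgk1* −4.41 and *Pkm* −3.27, while *Gapdh* was −3.19, *Eno1* −5.45 and *Pgam1* −7.20.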

Other observations

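Carbon entering the mitochondria was examined with the genes of pyruvate import and oxidation. *Mpc1*, a subunit of the mitochondrial pyruvate carrier, had 17960 and 295 counts in the WT libraries and 0, 28051 and 20229 in ∆M replicates 1, 2 and 3. *Mpc2*, the other subunit, had 11975 and 2060 counts against 41, 0 and 5873, so that ∆M replicate 2 held a subunit with 28051 counts and its partner with 0. *Pdhb*, a subunit of pyruvate dehydrogenase, had 28167 and 18190 counts in the WT libraries and 1, 10179 and 6183 in the ∆M libraries, without overlap, with a log2 fold change of −2.68 (standard error 3.50, edgeR adjusted p = 1), and −2.36 (standard error 2.19, edgeR adjusted p = 0.9999) without ∆M replicate 1. *Bsg*, which encodes the chaperone of the lactate transporters, had 0 and 15574 counts against 1, 2687 and 5824. These genes were named after their values were seen.

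Glycogen genes were sparse. Of the 11 genes of the glycogen and glycerol phosphate branches, 7 exceeded 3 counts in any library, 4 did so in 1 library alone, and 2 passed the filter. *Ugp2*, which makes UDP-glucose, had 0 and 4011 counts in the WT libraries and 0, 4 and 7793 in the ∆M libraries.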
